A study of Mus musculus with 9 samples.

Results

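The genes described here are 42 genes that are imprinted in the mouse, read from a count table of 27179 genes measured by bulk RNA sequencing in tissue punches of the paraventricular nucleus of the hypothalamus (PVN). All 42 were found by symbol, and 37 had enough reads to be tested. The list follows knowledge of imprinting in mouse, but it was drawn up with the counts and the group differences of these libraries already known. The members were thus chosen by measured values as well, and every test on them below is a description of where they stand among all genes. The 9 libraries came from male wild type mice (C57BL/6 in the labels, C57BL/6J in the study's methods), in 3 groups (Control, HFD and HFD+Mino) of 3 mice. Feeding began at 5 weeks of age (postnatal day 35 in the labels) and went on for 12 weeks, with 16% of calories from fat in the Control diet and 60% in the diet of the other groups. The HFD+Mino mice drank water with minocycline, a tetracycline antibiotic (40 mg/kg/day), during the final 6 weeks.

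An imprinted gene is transcribed mainly from the copy inherited from the mother or mainly from the copy inherited from the father. The choice follows DNA methylation laid down in the germ line at control regions, and imprinted genes therefore lie in clusters in which neighbours are often expressed from opposite parental copies. Many act on growth, on energy balance and in the hypothalamus. The deletion of paternal genes at the Prader-Willi locus causes overeating in humans, and several members of the Gnas locus act on body weight in mice. By the copy that is usually active, 24 members are expressed from the paternal copy, 15 from the maternal copy, and 3 (Gnas, Grb10 and Inpp5f) differ by transcript or tissue. The members fall into 17 loci, and 7 are noncoding RNAs. Counts from an inbred strain hold no parental differences in sequence, so the 2 parental copies cannot be told apart here, and each value below is the sum over both copies. The tissue is bulk, so fewer cells that express a gene and less RNA per cell cannot be told apart either.

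Stretches of sequence at the starts of 3 of the members called below (Peg3, Meg3 and Gnas) are printed here. Their part in the group differences was not tested. Peg3 and Usp29 are transcribed away from each other, and RefSeq places no transcript of either gene in the 96 bases between them. That interval is given on the Peg3 strand, chr7:6730463-6730558 of GRCm38.p6 (minus strand), with its 3 CG dinucleotides, the sites of DNA methylation, in capitals.
Peg3-Usp29 interval: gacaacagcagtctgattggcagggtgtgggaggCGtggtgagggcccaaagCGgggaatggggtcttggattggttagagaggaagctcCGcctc
The 250 bases before the Meg3 start, chr12:109540746-109540995 on the plus strand, hold the hexamer TGCCGC on their minus strand (GCGGCA, in capitals). ZFP57, the zinc finger protein that keeps methylation at imprinted control regions, binds these letters when they are methylated.
Meg3 upstream: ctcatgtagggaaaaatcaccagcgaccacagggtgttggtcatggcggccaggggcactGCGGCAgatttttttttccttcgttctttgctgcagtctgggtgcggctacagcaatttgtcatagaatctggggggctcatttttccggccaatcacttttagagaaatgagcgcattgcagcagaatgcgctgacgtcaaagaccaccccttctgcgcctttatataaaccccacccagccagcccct
Gnas has 4 promoter windows in the RefSeq table. The one richest in G and C is shown for the 250 bases before its start, chr2:174329756-174330005 on the plus strand, which are 80.0% G or C and hold 29 CG dinucleotides, in capitals.
Gnas upstream: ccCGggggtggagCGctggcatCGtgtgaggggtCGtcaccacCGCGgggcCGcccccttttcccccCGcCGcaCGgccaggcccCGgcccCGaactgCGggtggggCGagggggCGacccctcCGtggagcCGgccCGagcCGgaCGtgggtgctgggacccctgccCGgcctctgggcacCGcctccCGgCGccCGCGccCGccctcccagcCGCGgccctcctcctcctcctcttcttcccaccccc
RefSeq promoter windows (250 bases before to 50 after a start) were given for 34 of the 42 members. TGCCGC on either strand was present in at least 1 window of 12 of the 34 (35.3%) and of 3527 of 27025 genes with a window (13.1%). A gene with more windows has more chances to hold it. Snurf and Snrpn share a window, and its hexamer counts for both. Taking each gene's window with the most CG dinucleotides, the median was 16 in the members and 8 in all genes. These are counts of letters, and methylation was not measured.

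Total counts ran from 17728590 to 42326213 per library. CPM below is the usual scaled count of edgeR, with library sizes adjusted by TMM. Markers of the dissected region differed widely among libraries, also within groups. The summed level of 9 PVN neuropeptides and regulators ran from 150 to 2749 CPM in Control, from 2969 to 3916 in HFD and from 3828 to 38107 in HFD+Mino. The library labelled Control replicate 1 stood apart. The defining peptides of the PVN were near 0 in it, with Avp at 0.1 and Oxt at 0.8 CPM, while 6 oligodendrocyte markers summed to 29217 CPM in it and to between 2221 and 6886 in the other libraries. HFD+Mino replicates 1 and 2 held Avp at 28049 and 22180 CPM, against 1218 in replicate 3. Summed levels in Control, HFD and HFD+Mino were 6318 to 9109, 5289 to 7761 and 5680 to 6766 CPM for 8 neuronal markers, 1912 to 2049, 2484 to 2700 and 1483 to 1808 for 6 astrocyte markers, and 160 to 216, 226 to 239.7 and 177 to 223 for 6 microglial markers. Endothelial markers (5) ranged over 156 to 312, 146 to 182 and 158 to 414 CPM, markers of leptomeninges and vessel wall (6) over 21.5 to 53.8, 21.1 to 26.9 and 23.5 to 59.9, choroid plexus markers (6) over 13.2 to 14.1, 16.4 to 42.3 and 17.3 to 34.3, and markers of neighbouring nuclei (8) over 201 to 3517, 92.9 to 381 and 191 to 317. The 3517 CPM was in Control replicate 2, which held the markers Pmch at 2560 and Hcrt at 813 CPM. The other libraries held these at no more than 391 and 73.4 CPM. No marker on these lists was at 0 in every library. The part of tissue composition in the differences below was not tested, and the calls are also given without Control replicate 1 and without Control replicate 2.

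The members spanned a wide range of expression. Per kilobase of exon, the highest was Nap1l5, a nucleosome assembly protein gene, with a median over the 9 libraries of 1283 CPM per kb (range 1072 to 1760). It was followed by Nnat, which encodes a small membrane proteolipid of developing brain and endocrine cells, at 877 (333 to 1843). The order of these neighbours was not the same in every library, since Nap1l5 lay above Nnat in 7 of 9. Ndn came next at 332 CPM per kb, and Nnat lay above Ndn in 9 of 9 libraries. Impact, a regulator of translation in neurons, was at 224, Gnas at 205 and Blcap at 134 CPM per kb. Where Gnas stood depended on the group. In all 3 HFD libraries it lay below both Impact and Blcap, while in the other libraries it lay above Blcap and overlapped with Impact. Of the 6 highest members, 4 are paternally expressed. Peg13 and Meg3, at 55.9 and 45.5 CPM per kb, were the highest noncoding members. At the low end, Zim1, Airn and Rtl1 had medians of 0.457, 0.265 and 0.235 CPM per kb.

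**Figure D1:**
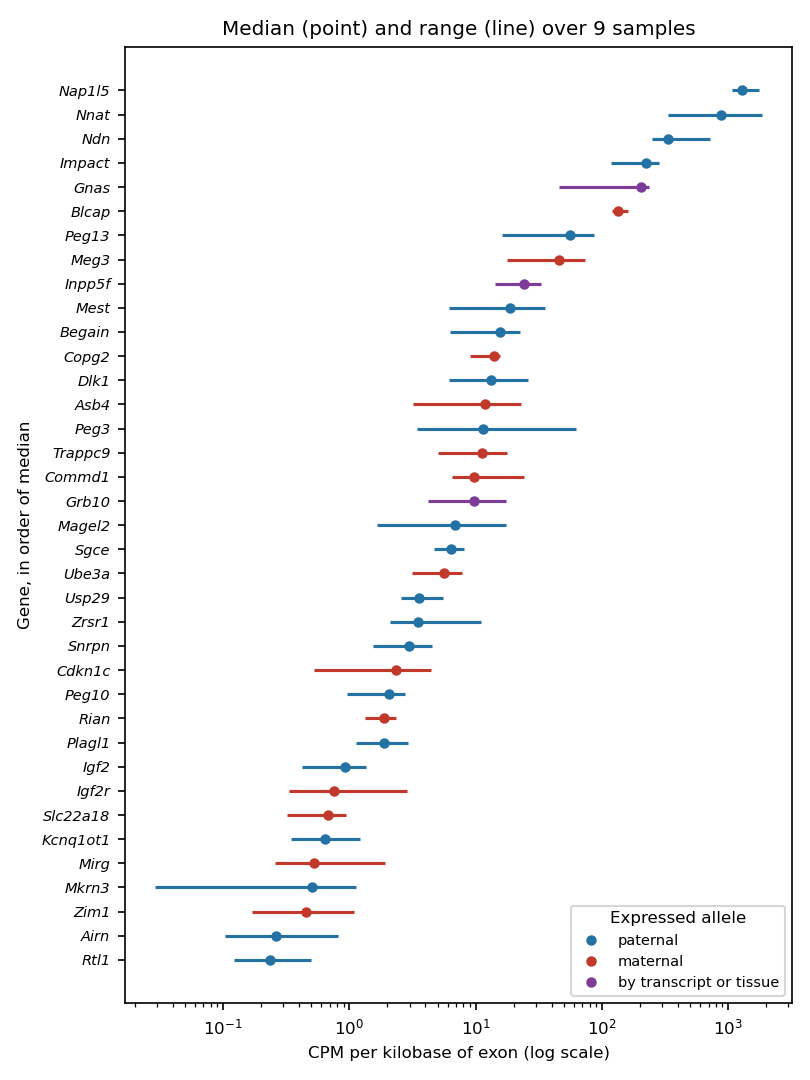
Level of each of the 37 tested imprinted genes in CPM per kilobase of exon (x axis, log scale), as the median (point) and the range (line) over all 9 libraries, coloured by the parental copy that is usually expressed. The genes span from 0.235 CPM per kb for Rtl1 to 1283 for Nap1l5, and the long lines of Peg3 and Gnas cover libraries of different groups.

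The other 5 members were too low to test. Snurf, whose 216 bases of exon lie wholly inside exons of Snrpn, had 0 counts in all 9 libraries, so reads of this stretch may not have been assigned to it. Phlda2, a growth-restricting gene of placenta, had 2 counts in 1 HFD library and 0 elsewhere. H19, the maternally expressed noncoding RNA beside Igf2, had 1, 5 and 2 counts in Control, 0 in each HFD library, and 0, 6 and 0 in HFD+Mino. Peg12 had at most 11 counts, and Dio3, which encodes the deiodinase that inactivates thyroid hormone, at most 10. These counts are too low to order the groups.

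Counts of all genes were compared among the 3 groups, and a gene was called where its false discovery rate (FDR, the Benjamini-Hochberg adjusted p of edgeR's quasi-likelihood test over all 17344 tested genes) was under 0.01. A call between groups also needed a difference of at least 1.5-fold. In the 3-way test, HFD had to be the highest or the lowest group, with a distance of 1.5-fold or more to the average of all 3 group means. In that test 1 of 37 members was called higher in HFD (Peg3) and 1 lower (Gnas), against 0.917% and 1.21% of all tested genes. For HFD against Control edgeR called 0 members higher, with 0.317% of all genes, and 1 lower (Gnas), with 1.42%. At an unadjusted p under 0.05, 7 members were higher in HFD than in Control, with 11.3% of all genes, and DESeq2 called 2 (Grb10 and Peg3), with 3.21%. Between HFD+Mino and HFD, 3 members were called higher (Gnas, Meg3 and Mirg), with 1.98% of all genes, and 1 lower (Peg3), with 2.16%. No member was called by edgeR between HFD+Mino and Control, nor was any other gene (0% of all genes). So 4 of the 37 members were called by edgeR in at least 1 test. The share of all genes called in at least 1 test was not taken, and the shares of single tests are no background for this count. The list did not move in a common direction. HFD was the highest group for 13 members, the lowest for 12 and the middle one for 12, against 6643, 6653 and 4048 of all tested genes. The median log2 difference was 0.09 between HFD and Control (0.004 over all genes) and 0.07 between HFD+Mino and HFD (0.009 over all genes). The calls without Control replicate 1 were the same members, plus Igf2r lower in HFD+Mino than in HFD. Without Control replicate 2, Gnas kept all its calls and Peg3 only the one between HFD+Mino and HFD. Meg3 and Mirg were then not called. Same-numbered samples of Control and HFD+Mino deviated together, and with the number as a block for these groups more members passed. This block was taken from the counts themselves, and different-numbered samples were not compared. The calls it adds are therefore only a description. The counts were then 4 higher and 4 lower in the 3-way test (7.76% and 5.4% of all genes), 4 for HFD against Control (6.22%), 11 for HFD+Mino against HFD (25.6%), and 3 for HFD+Mino against Control (3.18%). The 11 were Commd1, Gnas, Meg3 and Mirg, higher in HFD+Mino, and Grb10, Igf2r, Impact, Peg13, Peg3, Trappc9 and Ube3a, lower.

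**Figure D2:**
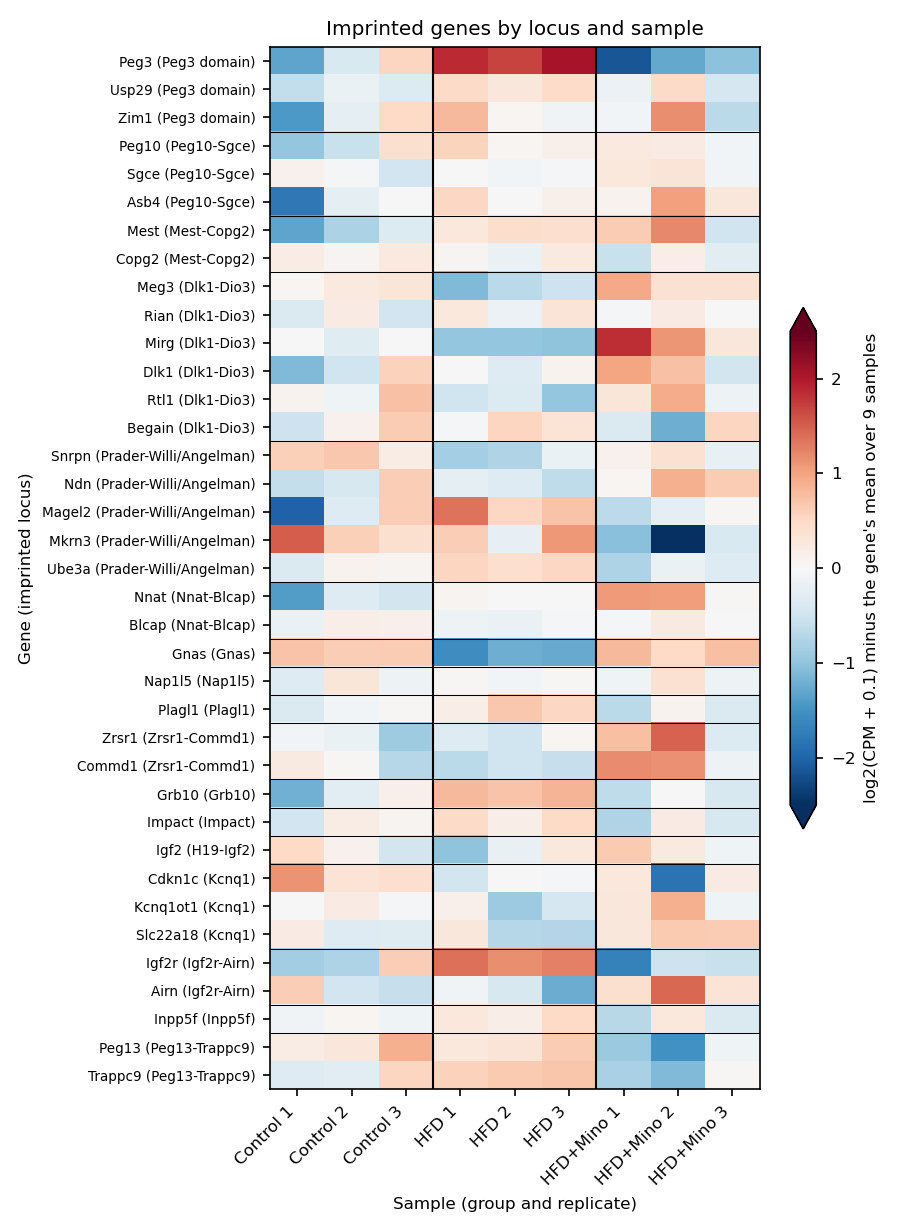
Heat map of the 37 tested imprinted genes (rows, grouped by locus) in the 9 libraries (columns). Colour gives log2(CPM + 0.1) minus the gene's mean over the libraries, and colours end at 2.5 in either direction. Peg3, Igf2r and Grb10 are high and Gnas, Meg3 and Mirg are low across the 3 HFD columns, while neighbours within a locus often differ from each other.

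Peg3, a paternally expressed zinc finger gene with roles in growth, body temperature and maternal care, showed the largest difference among the members. It stood at 79.8, 153 and 289.6 CPM in Control replicates 1 to 3, at 724, 642 and 835 in HFD, and at 45.5, 82.6 and 98.8 in HFD+Mino. All 3 HFD libraries lay above all 6 others, and HFD+Mino and Control overlapped. The means were 174 ± 106, 734 ± 97.0 and 75.6 ± 27.3 CPM (SD, 3 mice each). HFD exceeded Control by 2.07 ± 0.43 on the log2 scale (SE), which is 4.21-fold, but with an edgeR FDR of 0.0179 this missed the threshold of 0.01. HFD+Mino was lower than HFD by 9.70-fold (log2 difference -3.28 ± 0.45, edgeR FDR = 0.00257), and the 3-way FDR was 0.00358. With a length trend removed the difference from HFD in HFD+Mino was -2.65 and still called. The difference from Control passed in both blocked fits, the one over all groups and the one over Control and HFD+Mino only. The call in the 3-way test was lost without Control replicate 2, without any HFD replicate or without HFD+Mino replicate 1, and the call against HFD without any HFD replicate or HFD+Mino replicate 1. RefSeq also lists an antisense gene, Peg3os, across Peg3, and the libraries do not keep strand, so reads of both strands cannot be told apart.

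The divergent neighbour Usp29, a paternally expressed ubiquitin protease gene whose start faces the interval printed above, had means of 55.8 ± 8.65, 95.7 ± 6.76 and 72.7 ± 24.1 CPM in Control, HFD and HFD+Mino. HFD exceeded Control by 0.78 ± 0.25 on the log2 scale, and HFD+Mino differed from HFD by -0.40 ± 0.25. Neither passed the test. The HFD libraries lay above all Control libraries and overlapped with HFD+Mino. Usp29 shares 2582 bases of exon with Zim3 on the opposite strand, and reads of the 2 strands cannot be told apart. The log2 ratio of Peg3 to Usp29 counts, a comparison added after the values were seen, was 0.77, 1.26 and 2.35 in Control, 2.86, 2.87 and 3.07 in HFD, and -0.51, -0.27 and 0.88 in HFD+Mino. The HFD libraries thus lay above all 6 others in this ratio. Zim1, the maternally expressed zinc finger gene of the domain, had means of 3.40 ± 2.09, 4.85 ± 1.77 and 4.96 ± 3.36 CPM, and its groups overlapped.

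Gnas was the member with the most uniform difference. It encodes the alpha subunit of the stimulatory G protein, which couples receptors such as the melanocortin receptor of PVN neurons to cyclic AMP, and also the XL and Nesp proteins from other starts. The counts are the sum over these transcripts. Control libraries held 2458, 2291 and 2312 CPM, HFD libraries 512, 645 and 620, and HFD+Mino libraries 2634, 2095 and 2515. Every HFD library lay below every other library, and Control and HFD+Mino overlapped. HFD was lower than Control by 3.97-fold (log2 difference -1.99 ± 0.21, edgeR FDR = 0.0005), HFD+Mino was higher than HFD by 4.08-fold (2.03 ± 0.21, edgeR FDR = 0.000633), and the 3-way FDR was 0.000921. HFD+Mino and Control differed by 0.04 ± 0.20 on the log2 scale. With a length trend removed, the difference between HFD+Mino and HFD was 2.64. The call against Control held with each library left out in turn, that against HFD+Mino was lost without HFD replicate 3, and the 3-way call was lost without any HFD replicate. The antisense genes Gm20721 and Nespas share 1469 and 988 bases of exon with Gnas. The GC-richest 100 bases of Gnas exons were 89% G or C, against medians of 74% over all tested genes and 87% over the genes called lower in HFD. The part of base composition in the result was not tested.

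**Figure D3:**
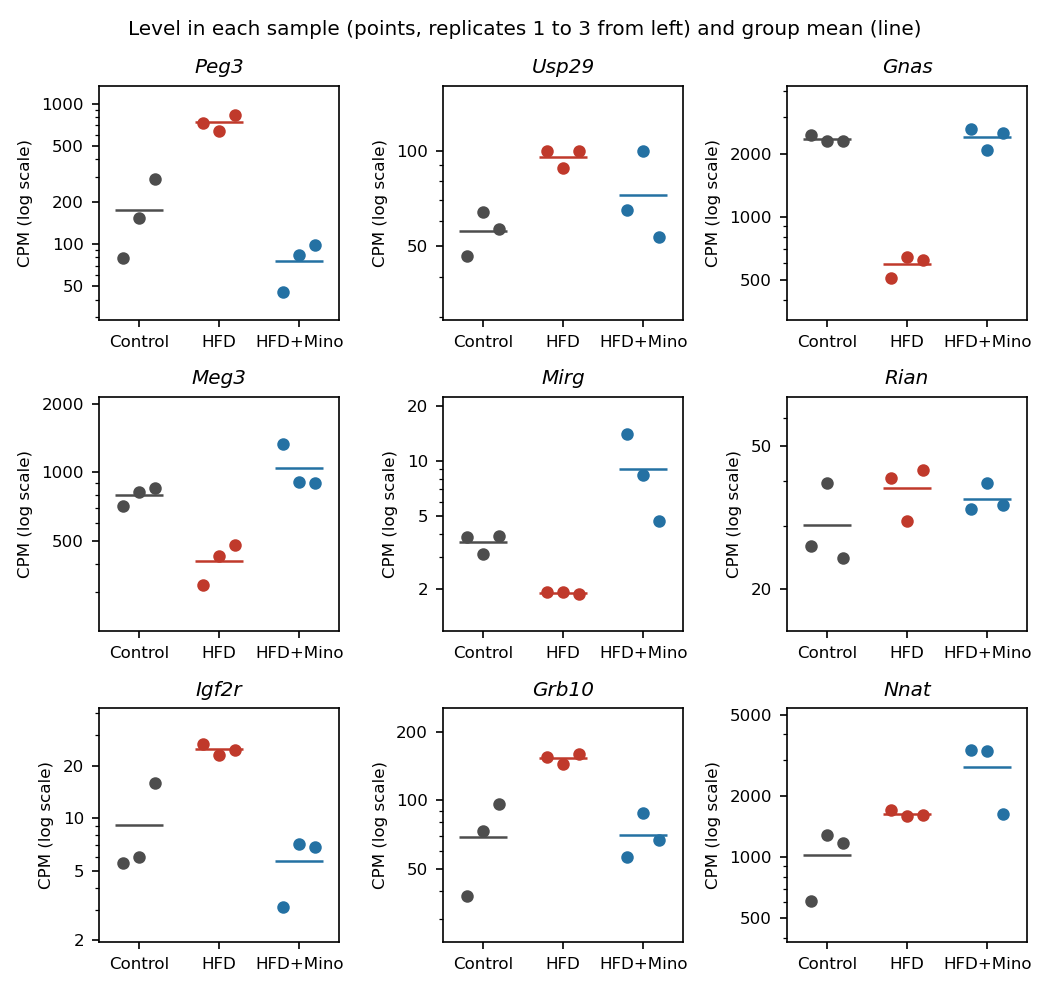
CPM (log scale) of 9 imprinted genes in each library (points, replicates 1 to 3 from left to right) and group means (lines). HFD points lie above all others for Peg3, Igf2r and Grb10 and below all others for Gnas, Meg3 and Mirg, while HFD points of Usp29 and Nnat lie above Control and overlap with HFD+Mino, and those of Rian overlap with both groups.

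In the Dlk1-Dio3 domain on chromosome 12 the maternal copy produces a chain of noncoding RNAs and the paternal copy protein-coding genes. Meg3, a long noncoding RNA that is abundant in neurons, stood at 712, 823 and 854 CPM in Control, 323, 432 and 481 in HFD, and 1336, 905 and 897 in HFD+Mino. All HFD libraries lay below all others, and HFD+Mino lay above Control in each of its libraries. HFD+Mino exceeded HFD by 2.54-fold (log2 difference 1.34 ± 0.24, edgeR FDR = 0.00763). HFD was lower than Control by 0.95 ± 0.24 on the log2 scale, with an edgeR FDR of 0.0428 that missed the threshold. With a length trend removed, HFD+Mino exceeded HFD by 2.04 on the log2 scale, and Meg3 was also called in the 3-way test and against Control. Meg3 shares 1228 bases of exon with the antisense gene Gm26906.

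Mirg, a microRNA host transcript further along the same strand, held 3.85, 3.11 and 3.89 CPM in Control, 1.91, 1.91 and 1.87 in HFD, and 14.0, 8.36 and 4.67 in HFD+Mino. The groups did not overlap in any pairing, and HFD+Mino replicate 3 was the lowest of its group. HFD+Mino exceeded HFD by 4.75-fold (log2 difference 2.25 ± 0.41, edgeR FDR = 0.00791), while HFD and Control differed by -0.93 ± 0.40 (edgeR FDR = 0.218). The Meg3 and Mirg calls were both lost without Control replicate 2, any HFD replicate, or HFD+Mino replicate 1 or 2. In the 3-way test their FDR values were 0.0154 and 0.0140, short of the threshold. Mirg lies across 19 mature microRNAs with 18 different seeds in the RefSeq table. A few are printed, with the seed (bases 2 to 8) in capitals, to show what the transcript carries. The first pair is the one that shares a seed.
mmu-miR-453: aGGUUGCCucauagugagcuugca
mmu-miR-496a-5p: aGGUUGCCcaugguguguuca
mmu-miR-377-3p: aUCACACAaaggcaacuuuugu
mmu-miR-369-3p: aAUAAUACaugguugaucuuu
mmu-miR-410-3p: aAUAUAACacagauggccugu
The mature microRNAs themselves were not measured by these libraries.

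Rian, the small nucleolar RNA host that lies between Meg3 and Mirg, did not follow them. Its means were 30.1 ± 8.26, 38.2 ± 6.34 and 35.7 ± 3.22 CPM, and the differences were 0.34 ± 0.25 between HFD and Control and -0.10 ± 0.24 between HFD+Mino and HFD. The log2 ratio of Meg3 to Rian, added after the values were seen, was 4.75, 4.38 and 5.13 in Control, 2.99, 3.80 and 3.49 in HFD, and 5.32, 4.52 and 4.71 in HFD+Mino. All HFD libraries lay below all others in it. The ratio of Mirg to Meg3 overlapped among groups, with means of -7.78 ± 0.26, -7.73 ± 0.31 and -6.97 ± 0.54.

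Of the paternal genes of the domain, Dlk1, which encodes a Notch ligand relative that holds back fat cell formation, stood at 34.6, 52.7 and 111 CPM in Control, 74.3, 59.2 and 78.6 in HFD, and 146, 123 and 54.0 in HFD+Mino. The groups overlapped, and the high HFD+Mino libraries were the ones with the high vasopressin level. Rtl1, a retrotransposon-derived gene, had 1.98 ± 0.66, 1.04 ± 0.24 and 2.22 ± 0.86 CPM, with all HFD libraries below all others, but neither difference passed the test (log2 differences -0.93 ± 0.48 and 1.09 ± 0.49). MicroRNAs on the opposite strand of Rtl1 belong to the maternal transcripts. The libraries do not keep strand, so the 22 to 93 counts of Rtl1 may hold reads of those transcripts. Begain, a postsynaptic protein gene, overlapped among groups with means between 57.0 and 78.9 CPM.

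At the Prader-Willi/Angelman locus edgeR called no member, while DESeq2, and edgeR with the block in Control and HFD+Mino only, called Ube3a lower in HFD+Mino than in HFD. Snrpn, which encodes a splicing protein of neurons, stood at 9.22, 9.71 and 6.89 CPM in Control, 3.31, 3.57 and 5.35 in HFD, and 6.47, 7.88 and 5.33 in HFD+Mino. HFD lay below Control in all libraries and overlapped with HFD+Mino, and the difference from Control was -1.07 ± 0.32 (edgeR FDR = 0.0797). Ndn, a MAGE family gene of postmitotic neurons, held 951, 1084 and 2184 CPM in Control, 1225, 1141 and 925 in HFD, and 1480.0, 2656 and 2219.8 in HFD+Mino. HFD+Mino lay above HFD in all libraries, by 0.95 ± 0.34 on the log2 scale (edgeR FDR = 0.0564). Magel2, a MAGE gene that acts in hypothalamic neurons with a ubiquitin ligase, went the other way, with 7.72, 25.3 and 48.1 CPM in Control, 80.3, 45.3 and 51.4 in HFD, and 20.0, 26.6 and 32.1 in HFD+Mino. HFD+Mino lay below all HFD libraries, by -1.17 ± 0.51 (edgeR FDR = 0.108), and Control replicate 1 was the lowest library. Mkrn3, a brake on puberty, had means of 1.89 ± 0.86, 1.48 ± 0.65 and 0.398 ± 0.318 CPM.

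The maternally expressed Ube3a, the ubiquitin ligase gene of Angelman syndrome, stood at 86.4, 117 and 116 CPM in Control, 160.3, 149 and 159 in HFD, and 64.5, 98.3 and 88.9 in HFD+Mino. All HFD libraries lay above all others. The difference between HFD+Mino and HFD was -0.90 ± 0.22 (edgeR FDR = 0.0172), past 0.05 but not past 0.01. Antisense transcripts, Snhg14 among them with 1803 bases, share exon sequence with Ube3a.

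Grb10 and Igf2r, which act on the insulin and insulin-like growth factor pathways, also lay highest in HFD, without being called by edgeR at an FDR under 0.01. Grb10, an adaptor that binds and restrains the insulin receptor, stood at 38.0, 73.6 and 96.4 CPM in Control, 155, 144 and 159 in HFD, and 56.7, 88.2 and 66.7 in HFD+Mino. Every HFD library lay above every other. The differences were 1.14 ± 0.31 between HFD and Control (edgeR FDR = 0.0587) and -1.12 ± 0.31 between HFD+Mino and HFD (edgeR FDR = 0.0253). Igf2r, the receptor that clears IGF2, had 9.09 ± 5.82, 24.7 ± 1.86 and 5.70 ± 2.24 CPM, with differences of 1.44 ± 0.44 (edgeR FDR = 0.0841) and -2.11 ± 0.45 (edgeR FDR = 0.0116). The HFD libraries again lay above all others. DESeq2 called both genes in the 3-way test and against HFD+Mino, and Grb10 against Control. With the block in Control and HFD+Mino only, both passed in the 3-way test, against Control and against HFD+Mino. With the block in all 9 libraries Grb10 passed in none of these and Igf2r only against HFD+Mino, as it did without Control replicate 1. Igf2, the growth factor itself, stood at 7.03, 5.28 and 3.56 CPM in Control, 2.41, 4.32 and 5.90 in HFD, and 7.77, 5.87 and 4.53 in HFD+Mino. Its groups overlapped, and 3596 of its exon bases are shared with the transcript Gm49394 on the same strand. Airn, the antisense RNA that silences paternal Igf2r, was low, with means of 0.989 ± 0.542, 0.694 ± 0.295 and 1.87 ± 0.92 CPM.

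Nnat stood at 609, 1282 and 1176 CPM in Control, 1694, 1594 and 1605 in HFD, and 3371, 3329 and 1634 in HFD+Mino. The order of the groups was Control, HFD, HFD+Mino, with HFD above Control in all libraries. HFD+Mino replicate 3 fell inside the HFD range. No edgeR comparison called it (differences of 0.67 ± 0.33 and 0.77 ± 0.33). The high libraries of HFD+Mino were those with the high vasopressin level. The lowest of all 9 libraries was Control replicate 1, in which that peptide was near 0. Blcap, the maternally expressed gene whose intron holds Nnat, kept to between 369 and 488 CPM in all 9 libraries.

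Past an FDR of 0.05 and 1.5-fold, 4 members were higher in HFD+Mino than in HFD, with 14.6% of all genes at this threshold, and 6 were lower, with 12.9%. The additions to the calls above were Commd1, a copper-handling gene, on the higher side (59.1 ± 18.4, 42.3 ± 2.62 and 114 ± 48.6 CPM), and Grb10, Igf2r, Ube3a, Trappc9 and Peg13 on the lower side. Trappc9, a vesicle transport gene, had 89.1 ± 32.2, 135 ± 5.15 and 59.5 ± 25.9 CPM, and the noncoding RNA Peg13 inside it 309 ± 87.9, 294 ± 42.6 and 132 ± 64.9 CPM. Their differences between HFD+Mino and HFD were -1.19 ± 0.33 and -1.16 ± 0.34. Counting overlap alone, the 3 HFD libraries lay above all 6 others for 6 members (Peg3, Ube3a, Plagl1, Grb10, Igf2r and Trappc9), with 13.4% of all genes, and below all others for 4 (Meg3, Mirg, Rtl1 and Gnas), with 9.62%. Both shares of the 37 members, 16.2% and 10.8%, are near these backgrounds. Plagl1, a zinc finger transcription factor, had means of 13.1 ± 1.79, 19.8 ± 3.54 and 11.7 ± 3.16 CPM.

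In the remaining members HFD overlapped with at least 1 of the other groups. Peg10, a retrotransposon-derived gene, Sgce, a sarcoglycan gene, and Asb4 had group means of 10.4 to 15.0, 63.9 to 78.7 and 31.2 to 63.0 CPM. Asb4, an ankyrin repeat gene of hypothalamic neurons, was lowest in Control replicate 1 at 12.5 CPM. Mest, an enzyme gene linked to fat cell size, had 35.8 ± 11.7, 79.3 ± 5.18 and 92.2 ± 48.1 CPM and lay above all Control libraries in HFD (1.15 ± 0.38, edgeR FDR = 0.110), and its neighbour Copg2, a vesicle coat gene, had 76.1 ± 4.71, 70.4 ± 10.0 and 59.4 ± 15.3. Zrsr1, a splicing factor gene inside Commd1, had 14.0 ± 4.04, 15.0 ± 2.96 and 31.0 ± 17.7 CPM. Impact, the translation regulator (986 ± 225, 1339 ± 166 and 854 ± 296 CPM), Inpp5f, a phosphoinositide phosphatase gene (187 ± 10.9, 240.3 ± 29.9 and 166 ± 57.5) and Nap1l5 (2433 ± 564, 2481 ± 100 and 2609 ± 552) were not called by edgeR in either comparison. Impact was called lower in HFD+Mino than in HFD with the block in Control and HFD+Mino only. At the Kcnq1 locus, Cdkn1c, a brake on cell division, had 6.63 ± 2.12, 3.67 ± 0.61 and 3.60 ± 2.19 CPM, the antisense RNA Kcnq1ot1 63.2 ± 5.91, 47.8 ± 17.0 and 80.6 ± 28.9, and the transporter gene Slc22a18 0.890 ± 0.219, 0.768 ± 0.378 and 1.45 ± 0.22.

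**Figure D4:**
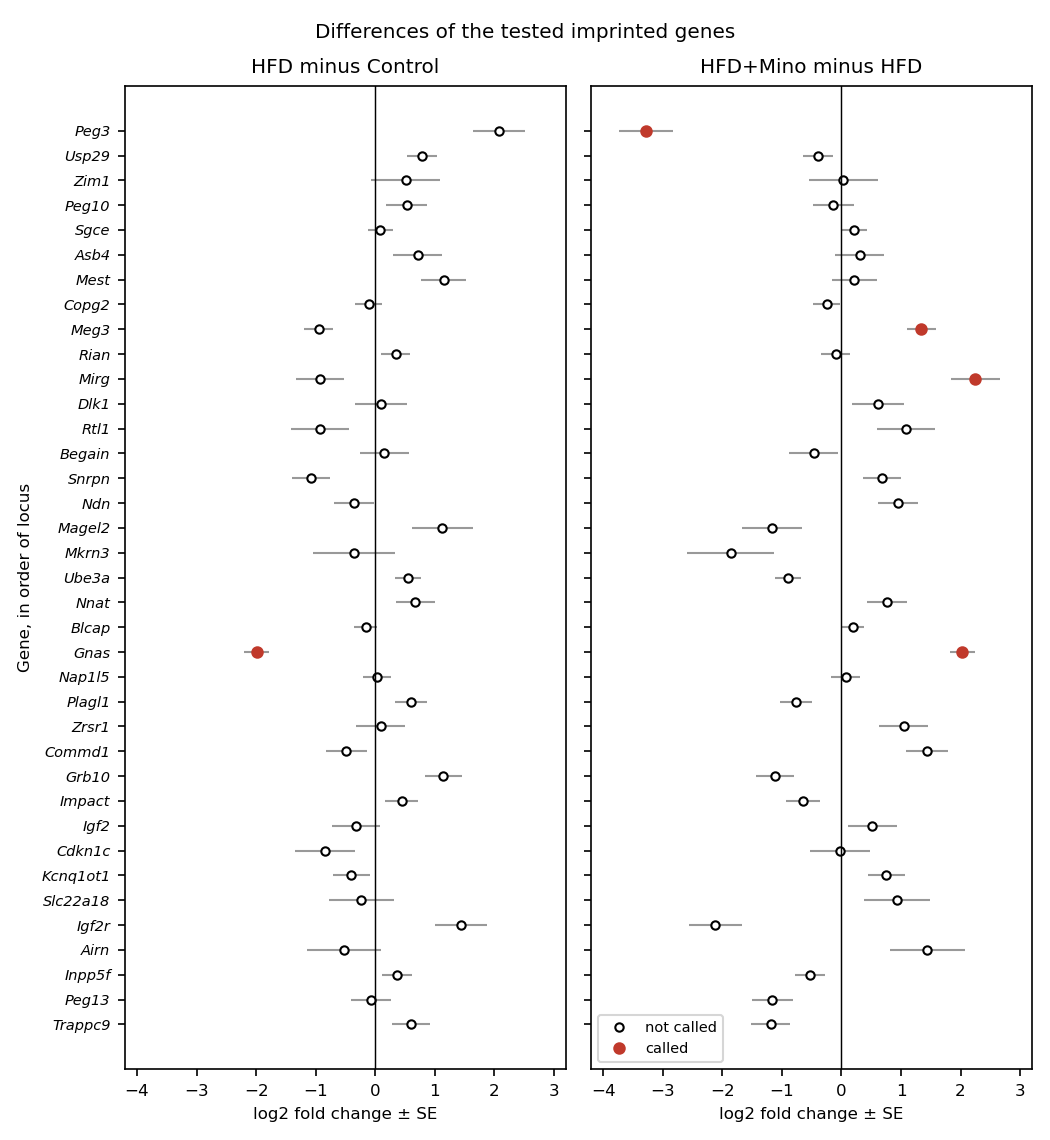
Log2 fold changes (points) with standard errors (lines) of the 37 tested imprinted genes between HFD and Control (left) and between HFD+Mino and HFD (right), in order of locus, with the calls at an FDR under 0.01 filled. Only Gnas is filled on the left, and Peg3, Meg3, Mirg and Gnas are filled on the right; both panels use the same HFD libraries.

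By the parental copy, 1 of 21 tested paternal genes (Peg3) and 0 of 13 maternal genes were called by edgeR in the 3-way test. That test called 0.917% of all genes higher in HFD and 1.21% lower, so these counts are too small to compare the copies. At an unadjusted p under 0.05 that test took in 6 of the maternal and 10 of the paternal genes, with 39% of all genes. DESeq2 called 4 maternal genes (Igf2r, Commd1, Meg3 and Mirg) and 1 paternal gene (Peg3) in it, with 13.5%. Between HFD+Mino and HFD the edgeR calls were 2 maternal genes higher, 1 paternal gene lower and Gnas. Of all genes, 1.98% were called higher there and 2.16% lower. The median differences between HFD+Mino and HFD were 0.22 in the paternal genes and 0.03 in the maternal genes. The 6 tested noncoding RNAs had a median of 1.05 in that comparison and -0.47 between HFD and Control. The 31 tested coding members had 0.03 and 0.15, and all genes 0.009 and 0.004. HFD was the lowest group for 4 of the 6 noncoding RNAs, the exceptions being Rian and Peg13, and for 38.4% of all genes. Meg3, Rian and Mirg lie in 1 locus, and Airn had as few as 15 counts. The values are therefore not read as a trait of noncoding members.

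Within a library, the ratio of neighbours expressed from opposite copies does not depend on library size. Of 12 such pairs, 11 had at least 10 counts of both genes in every library. The HFD libraries lay beyond all 6 others in 4 of the 11, and these ratios are given on the log2 scale. A share over all gene pairs was not computed, and 2 of the 4 hold Peg3 or Igf2r, whose own HFD libraries lay above all others, as did those of 13.4% of single genes. Meg3 and Ube3a, in the other pairs, also lay beyond all others by themselves. Zim1 to Peg3 was -5.86, -5.53 and -5.71 in Control, -6.71, -7.31 and -7.84 in HFD, and -3.62, -3.23 and -5.35 in HFD+Mino, so HFD was lowest. Meg3 to Dlk1 had means of 3.76 ± 0.73, 2.53 ± 0.38 and 3.37 ± 0.61, and HFD was again lowest, though HFD replicate 2 and HFD+Mino replicate 2 were both at 2.87. Ube3a to Ndn was -3.46, -3.21 and -4.23 in Control, -2.93, -2.94 and -2.54 in HFD, and -4.52, -4.76 and -4.64 in HFD+Mino, with HFD highest and HFD+Mino below every other library. Igf2r to Airn had means of 3.13 ± 1.41, 5.22 ± 0.67 and 1.61 ± 0.67, with HFD highest, and rests on as few as 15 counts in a library.

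In 3 other pairs Control lay beyond both groups on the fat diet. No share over gene pairs or single genes was computed for this, so the count has no background beside it. Trappc9 to Peg13 was -1.85, -1.90 and -1.70 in Control, -1.03, -1.01 and -1.29 in HFD, and -1.22, -0.93 and -1.19 in HFD+Mino. All 6 fat-diet libraries were higher than all Control libraries, and the means of HFD and HFD+Mino were -1.11 ± 0.16 and -1.12 ± 0.16. Copg2 to Mest was higher in Control, with means of 1.14 ± 0.46, -0.18 ± 0.24 and -0.51 ± 0.78, and Blcap to Nnat likewise, with -1.18 ± 0.41, -2.08 ± 0.09 and -2.59 ± 0.57. Exons of Copg2 and Mest share 912 bases on opposite strands, so these 2 genes are not fully separated. In Commd1 to Zrsr1 the HFD libraries lay below all Control libraries and overlapped with HFD+Mino. Exons of Commd1 and Zrsr1 share 412 bases on opposite strands, so they are not fully separated either. In Asb4 to Sgce, Meg3 to Rtl1 and Cdkn1c to Kcnq1ot1 the groups overlapped. Meg3 to Rtl1 carries the limit on strand given above for Rtl1. The ratios are given without a test, because the members were chosen with results known.

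**Figure D5:**
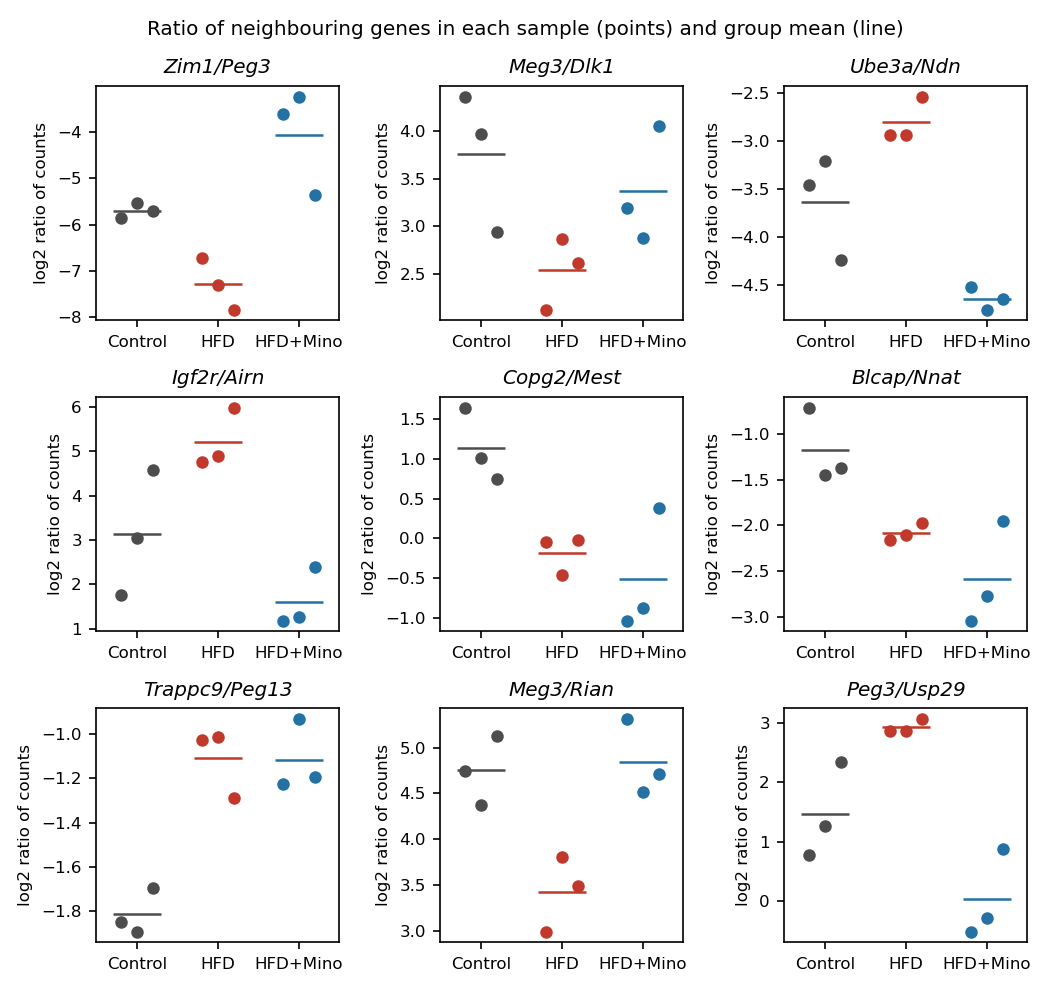
Log2 ratio of the counts of neighbouring imprinted genes in each library (points, replicates 1 to 3 from left to right), with group means (lines). HFD stands beyond the other libraries in the top row, in Igf2r/Airn, Meg3/Rian and Peg3/Usp29, while Control stands apart from both fat-diet groups in Copg2/Mest, Blcap/Nnat and Trappc9/Peg13.

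Between HFD+Mino and Control, 9 members had an unadjusted p under 0.05, as had 21.3% of all genes, and none passed the edgeR FDR threshold. The members were Peg3, Asb4, Mest, Mirg, Mkrn3, Nnat, Zrsr1, Commd1 and Peg13. DESeq2 called Nnat higher in HFD+Mino, with 1.56% of all genes, and the fit with the block in Control and HFD+Mino only called Commd1 higher and Peg3 and Peg13 lower, with the 3.18% given above. Without HFD+Mino replicate 3, whose vasopressin level was far below that of the other HFD+Mino libraries, 5 members passed, with 6.28% of the genes tested: Commd1, Mest, Mirg and Nnat were higher and Peg13 lower.

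A second list of 39 imprinted genes outside the 42 had 32 tested, and edgeR called 1 in any comparison, again without a share over all genes. That gene was Chrac1, a chromatin accessibility factor gene near Peg13, which was higher in HFD+Mino than in HFD by 1.75 ± 0.30 on the log2 scale. Differences between these groups were larger in Htr2a, a serotonin receptor gene (-2.30 ± 0.67), and Kcnk9, a potassium channel gene of the Peg13 locus (-2.02 ± 0.92), which edgeR did not call. In the 3-way test DESeq2 called 3 of the 32 (13.5% of all genes). It called 1 for HFD against Control (6.84%) and 7 for HFD+Mino against HFD (22.4%), Htr2a among the 7. The median differences of the 32 genes were 0.15 between HFD and Control and -0.05 between HFD+Mino and HFD. Factors that set or keep imprints were also examined. Of 20 tested, 0 were called in any of the edgeR tests, and 8 had an unadjusted p under 0.05 between HFD and Control (20.5% of all genes) and 10 between HFD+Mino and HFD (41.3%). DESeq2 called 6 in the 3-way test (13.5% of all genes), 3 for HFD against Control (6.84%) and 6 for HFD+Mino against HFD (22.4%). HFD was the highest group for 14 of the 20 and the lowest for 3, against 38.3% and 38.4% of all genes, with medians of 0.53 between HFD and Control and -0.53 between HFD+Mino and HFD. Some of the marker lists, of 5 to 9 genes each, leaned the same way and others did not. HFD was highest for 62.5% of the neuronal markers and 66.7% of the astrocyte and of the microglial markers. It was highest for 11.1% of the PVN list, 12.5% of the neighbouring nuclei, 20% of the endothelial and 33.3% of the leptomeninges and vessel wall markers. Over all marker lists this share ran from 0% (oligodendrocytes) to 83.3% (choroid plexus). The 3 with the largest differences between HFD+Mino and HFD were Dnmt3l, a germ line partner of the methyltransferases (2.76 ± 0.84), Uhrf1, which guides maintenance methylation (-2.03 ± 0.82), and Zfp57, whose binding letters are capitalised in the Meg3 sequence above (1.41 ± 0.38). Zfp57 had means of 8.88, 2.91 and 7.71 CPM in Control, HFD and HFD+Mino. Dnmt3l and Uhrf1 were lower, with means of 0.365, 0.606 and 4.15 CPM and of 0.608, 2.01 and 0.482 CPM. Both were uneven within a group. Dnmt3l stood at 3.87, 7.32 and 1.26 CPM in HFD+Mino, and Uhrf1 at 3.92, 0.899 and 1.22 CPM in HFD.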

How the data were processed

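PVN punches were sequenced with 50 cycles per end, after amplification of cDNA with a SMARTer kit and Nextera XT libraries, which do not keep strand. The authors aligned reads to GRCm38 (mm10) with HISAT2, counted them per gene with featureCounts and deposited these whole-number counts without normalization. Groups and replicate numbers came from the sample titles. Tests used edgeR 4.0.16 under R 4.3.3 (filterByExpr, TMM, quasi-likelihood fit of all 9 libraries with 1 mean per group). Calls needed an FDR under 0.01 and 1.5-fold. CPM uses TMM-scaled library sizes, exon lengths and overlaps come from GENCODE M21, and positions, promoters and microRNAs from RefSeq (GRCm38.p6). Ratios used counts plus 0.5.

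The 42 members, the other gene lists and the tests were chosen with earlier results of these data known. Every member is named, ordered by locus. Values in every sample are printed for members called in any test and for 12 members chosen for their place in the field (Peg3, Meg3, Snrpn, Ndn, Magel2, Nnat, Gnas, Dlk1, Grb10, Ube3a, Igf2 and H19). Other lists are given by counts, with at most 3 genes named. The mice of a group are separate animals. Replicate pairs of a group were further apart than sampling of reads allows (chi-square divided by its degrees of freedom from 21.0 to 316). Total counts of 17728590 to 42326213 carry no molecular identifiers, so precision was taken from the spread between mice. Alternatives were DESeq2 1.42.0, RLE size factors, an FDR under 0.05, Rn45s and the mitochondrial genome (15 genes) left out, no filter on low counts, a length trend removed, the replicate number as a block, and each library left out. Same-numbered samples of Control and HFD+Mino deviated together (correlations 0.109, 0.129 and 0.241 over genes), which comes from the counts alone, since no shared litter, batch or day is named. HFD did not follow either group in this way. Only same-numbered pairs were correlated. The titles number the HFD libraries otherwise than their column names in the deposited counts do, so the block in all 9 libraries rests on the title numbers. The fitting code was tested on simulated data.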

Additional observations from a re-analysis of the deposited data

How the results depend on the processing

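The numbers of members called higher and lower in HFD in the 3-way test, and called for HFD against Control, HFD+Mino against HFD, and HFD+Mino against Control, were 1, 1, 1, 4 and 0. They became 3, 4, 3, 10 and 0 at an FDR under 0.05, 3, 4, 4, 10 and 1 with DESeq2, and 2, 3, 2, 6 and 0 with no filter on low counts. With a length trend removed they were 1, 3, 2, 5 and 0, and the median difference between HFD+Mino and HFD moved from 0.07 to 0.286. With the replicate block in all 9 libraries they were 1, 1, 2, 7 and 0, and with the replicate block in Control and HFD+Mino only 4, 4, 4, 11 and 3. The same members were called with RLE size factors, or without Rn45s and the mitochondrial genome. Over the fits that leave out 1 library they ranged from 0 to 2, 0 to 4, 1 to 2, 0 to 9 and 0 to 5. No call changed direction under these alternatives. Where shares over all genes were taken, they rose as well. For HFD+Mino against HFD, DESeq2 called 22.4% of all genes. The main fit called 1.98% higher and 2.16% lower. Without a filter, with a length trend removed or with the block in all 9 libraries, no such shares are given. This also holds for most fits that leave out 1 library and for some tests at an FDR under 0.05. The rises are therefore not read as a result about the members. The causes of these shifts were not tested.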
